A study of Mus musculus with 12 samples.

Results

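Among the CD3-positive cells of the spleen, a small set carried transcripts of S1pr5, Cx3cr1, Klrg1 and Klre1, genes that mark terminally differentiated effector lymphocytes. A cell was a member when it held at least 3 unique molecular identifiers (UMIs) of Cd3d, Cd3e and Cd3g together and at least 1 UMI of 2 or more of those 4 genes. The rule found 446 members among 9164 CD3-positive spleen cells, of 10222 spleen cells and 32763 cells in the whole series. The other 8718 CD3-positive spleen cells were the reference. The detection of the 4 genes and of CD3 chose the members, so the values of those 7 genes are given as a description, with no test.

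Mice received T helper 1 (Th1) cells by transfer. In the KO group the transferred cells were Il23r eGFP/eGFP, with the green fluorescent reporter allele on both copies of the interleukin-23 receptor gene. In the control group they were Il23r wt/eGFP, named wildtype by the study, so the controls carried 1 reporter allele as well. The labels call all cells CD4 T cells and do not say which recipient strain was used or whether animals were pooled. Spleen had 4 libraries, KO 1, KO 2, control 1 and control 2, and library values below run in that order. KO 1 and control 1 were batch 1, and KO 2 and control 2 were batch 2, by the batch column of the deposited cell table. The other 8 libraries came from colon lamina propria, colon epithelium and small intestine lamina propria, and held 1 to 13 cells of this rule each (0.123 to 0.365% of their CD3-positive cells).

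S1PR5 is a receptor for the lipid sphingosine 1-phosphate, and it is known for guiding natural killer (NK) cells and effector T cells out of bone marrow and tissue into blood. CX3CR1 is the receptor for fractalkine and marks circulating, vessel-patrolling effector T cells. KLRG1 is an inhibitory lectin receptor that accumulates on effector cells late in their differentiation, and KLRE1 is another lectin receptor of the same gene family. In mice the transcription factors T-bet (Tbx21) and ZEB2 together drive this terminal state, while TCF1 (Tcf7), CCR7 and the interleukin-7 receptor mark the naive and memory cells that give rise to it.

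S1pr5 (ENSMUSG00000045087, chr9:21242912-21248443) and Cx3cr1 (ENSMUSG00000052336, chr9:119901616-120069879) lie on the minus strand of chromosome 9 in the GRCm38 annotation. The 250 bases before their RefSeq starts on GRCm38.p6 are shown because these genes define the cells, and 2 of 3 looked-up genes had an entry. The RefSeq start of Cx3cr1 lies inside the interval above, which in the gene annotation reaches to a start further upstream. Neither window held GGTGTG, the core of a site for T-box factors, or CAGGTG, an E-box that ZEB factors can bind, on either strand, so nothing is in capitals. Of 32851 promoter windows of the same length, 16.3% held the first motif and 17.2% the second. Absence of these letters says nothing of binding elsewhere at the genes.
S1pr5, chr9:21248444-21248693, minus strand: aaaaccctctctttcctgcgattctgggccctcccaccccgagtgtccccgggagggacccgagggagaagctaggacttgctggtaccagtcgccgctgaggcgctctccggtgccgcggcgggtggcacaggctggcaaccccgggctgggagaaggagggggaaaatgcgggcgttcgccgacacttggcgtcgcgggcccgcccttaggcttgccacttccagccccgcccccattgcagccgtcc
Cx3cr1, chr9:120068297-120068546, minus strand: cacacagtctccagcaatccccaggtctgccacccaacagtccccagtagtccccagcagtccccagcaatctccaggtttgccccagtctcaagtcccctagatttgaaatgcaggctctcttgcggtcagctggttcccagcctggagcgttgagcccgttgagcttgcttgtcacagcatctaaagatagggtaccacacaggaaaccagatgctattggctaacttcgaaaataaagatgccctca

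Members made up different shares of the CD3-positive cells in the 4 libraries. They were 155 of 764 CD3-positive cells (20.3%, exact 95% binomial interval 17.5 to 23.3%) in KO 1 and 168 of 3603 (4.66%, 4.0 to 5.40%) in KO 2. They were 74 of 1136 (6.51%, 5.15 to 8.11%) in control 1 and 49 of 3661 (1.34%, 0.992 to 1.77%) in control 2. Each KO library therefore had a larger share than the control of its own batch, and KO 2 had a smaller share than control 1.

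The mean share was 12.5 ± 11.05% in KO and 3.93 ± 3.66% in control (SD, n = 2 each), a difference of 8.55 percentage points. By a two-sided exact permutation test this gave p = 0.667, where 2 libraries against 2 allow no p under 0.33. With signs exchanged within batches, p was 0.5, the smallest value that 2 pairs allow, so this test could not decide the question. The KO share was 3.11 times the control share within batch 1 and 3.48 times within batch 2. Leaving out KO 1 brought the difference down to 0.737 points, and leaving out KO 2 raised it to 16.4 points. The intervals of single libraries cover counting error only. Depth changed the size of the shares. With every cell thinned to 1500 UMIs and the rule applied to the thinned counts, members were 11.3% and 2.88% in KO 1 and KO 2, and 3.0% and 0.490% in control 1 and control 2. The batch ratios were then 3.76 and 5.89.

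**Figure D1:**
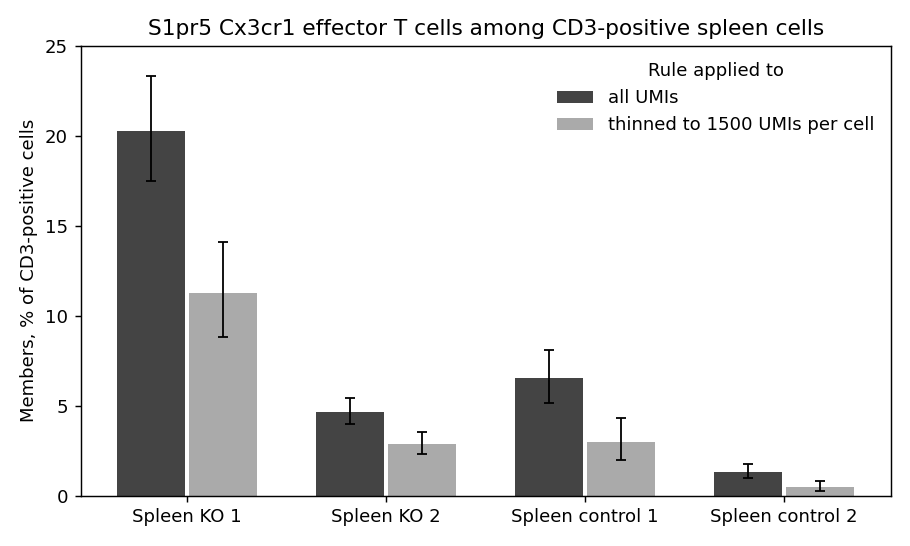
Members as a percent of CD3-positive cells in the 4 spleen libraries, KO left of control. Dark bars apply the rule to all UMIs and pale bars to cells thinned to 1500 UMIs, and the lines are exact 95% binomial intervals. KO 1 reached 20.3% and control 2 stayed at 1.34%, and each KO library stood above the control of its batch.

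Members were shallower than the other CD3-positive cells in every library. Their median depth was 3318, 1969, 4469.5 and 1781 UMIs per cell, against 6271, 3077, 5509.5 and 2387 UMIs in the others. At 1500 UMIs per cell, members showed 793 to 810.5 genes and the others 770.5 to 806.5 genes (medians by library). The share of UMIs from ribosomal protein genes was lower in members of every library, at 16.7 to 22.0%, against 19.2 to 24.9% in the others. Of all members, 1 had a barcode that also occurred in another spleen library and 11 had one that occurred in any other library, and no barcode was a member in 2 spleen libraries.

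Klrg1 was the most often detected of the 4 genes, in 78.0% of members, followed by Cx3cr1 in 72.6%, S1pr5 in 55.8% and Klre1 in 41.5%. The commonest pair was Cx3cr1 with Klrg1, both present in 53.8% of members, and the rarest was S1pr5 with Klre1, in 21.1%. In lymphoid tissue inducer-type spleen cells (84 cells with no CD3 UMI, at least 2 of 4 marker genes of that type and fewer than 2 of NK cells), which should lack these genes, UMIs were found in 5.95% (Klrg1), 4.76% (Cx3cr1), 2.38% (S1pr5) and 2.38% (Klre1) of cells, at a median of 5430 UMIs. Among the other CD3-positive cells, at a median of 2992.5 UMIs, the shares were 7.59%, 2.43%, 0.493% and 1.48%. In summed counts, S1pr5 measured 253, 288, 148 and 188 CPM (UMIs of the gene scaled to a fixed total per library and class) in members, against 4.15, 1.18, 1.5 and 0.807 CPM in the others. Klrg1 (ENSMUSG00000030114, chr6:122270596-122282882) measured 328, 649.8, 378 and 355 CPM in members, against 25.6, 52.0, 48.4 and 21.4 CPM in the others.

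The line between members and others fell across a range of detection and not across a gap. Exactly 2 genes were detected in 265 members, 3 in 148 and all 4 in 33, while 1046 of the others had exactly 1. Just inside and just outside the line, cells with 2 genes measured 183, 271, 52.8 and 179 CPM of Zeb2, and cells with 1 gene 50.1, 34.6, 15.8 and 43.4 CPM.

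The label was checked against lineage markers. Cd4, the co-receptor of helper T cells (ENSMUSG00000023274), measured 276, 199, 229.8 and 174 CPM in members and 289.9, 230.0, 293 and 204 CPM in the others (log2 fold change -0.28 ± 0.11, SE; adjusted p = 0.0876 by edgeR's quasi-likelihood test), and 51.1% and 53.3% of cells had a UMI of it. Lck, a kinase of T cell receptor signalling, gave 0.18 ± 0.08 (adjusted p = 0.207). Cd8a rested on 3 UMIs in KO 1 and 5 in control 2 and on none in the other 2 libraries, and 6 of 446 members had a UMI of it; it passed (3.24 ± 0.93, adjusted p = 0.0102), and without KO 1 or control 2 it was too low to be tested. Constant regions and variable segments of T cell receptor genes were not analysed here.

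Markers of NK cells were uneven in members, and their sum was higher than in the others of every library. Summed over 10 markers they measured 149, 38.9, 209 and 62.6 CPM in members and 126, 23.7, 31.2 and 14.8 CPM in the other CD3-positive cells. The lymphoid tissue inducer-type cells, which are not NK cells, measured 1445 to 2470 CPM. NK-type spleen cells with no CD3 UMI numbered 8, and the sum was not made for them. Sh2d1b1 and Khdc1a were at 0 in members. Ncr1, which encodes the activating receptor NKp46, had 10 of its 11 UMIs in 1 member of control 1. Tyrobp, a signalling adaptor of NK and myeloid cells, measured 74.4, 2.29, 81.4 and 0 CPM in members and 24.4, 10.3, 5.99 and 3.03 CPM in the others, and did not pass (1.83 ± 0.85, adjusted p = 0.451), though it did without control 1 (1.02, adjusted p = 0.0161). Few cells carried Tyrobp, with 54 UMIs in 3 of 155 members of KO 1 and 40 UMIs in 9 of 74 members of control 1. At least 2 NK markers were present in 7 members (1.57%) and in 51 of the others (0.585%). B cell, neutrophil, and basophil and mast cell markers gave 0 members with 2 or more genes, which at a floor of 3 counts allows a share of up to 0.673% (exact 95% limit 0.824%). The same counts were 13 members (2.91%) for erythroid markers and 3 (0.673%) for macrophage markers. Il23r itself had 1 UMI in all members, so its loss could not be followed in them, and tags near the 3′ end do not check the altered allele.

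The comparison of members with the other CD3-positive cells of the same libraries asked what else set the cells apart. A total of 688 of 9518 genes passed at an adjusted p of 0.05 (7.23%), 264 higher (2.77%) and 424 lower (4.45%) in members, in a model with the library as a block. Of these, 208 lay higher in all 4 libraries and 378 lower in all 4. DESeq2 called 320 genes and cells thinned to 1500 UMIs gave 405. The median over all genes was -0.03 on the log2 scale. Lists below are set against those backgrounds.

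Zeb2 and the chemokine gene Ccl5 led the higher side among abundant genes. Zeb2 and Klra3 were on the list of terminal effector markers, with S1pr5, Cx3cr1, Klrg1 and Klre1. That list was chosen with earlier results of these data known, so the tests of Zeb2 and Klra3 are not independent of the choice. Zeb2 (ENSMUSG00000026872, chr2:44983632-45117395) measured 273, 364, 128 and 209 CPM in members, against 22.6, 16.2, 7.04 and 9.58 CPM in the others (4.08 ± 0.15, adjusted p = 1.51e-153). The classes did not overlap, and a UMI was found in 53.6% of members and 3.77% of the others. Ccl5 (ENSMUSG00000035042, chr11:83525778-83530518), an inflammatory chemokine of effector T cells, measured 25371, 32465, 17415 and 28140.0 CPM, against 3299, 4809, 3635 and 6121 CPM (2.46 ± 0.08, adjusted p = 3.61e-85). The lowest member level, in control 1, was above the highest level in the others. Kcnj8 (ENSMUSG00000030247, chr6:142564837-142571614), a subunit of ATP-sensitive potassium channels, measured 117, 103, 59.0 and 90.5 CPM, against 6.92, 2.90, 4.64 and 4.64 CPM (4.24 ± 0.24). It was higher in 4 of 4 libraries and passed in every alternative.

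Receptor genes of NK cells, most of them lectin receptors, rose in 8 of 11 cases and fell in none (median 1.43). Klra9 measured 4.07 to 34.8 CPM in members and 0.150 to 0.923 CPM in the others (5.86 ± 0.57). Klra3 (chr6:130323289-130337574) measured 49.6, 20.6, 32.5 and 97.4 CPM in members and 11.3, 6.58, 2.55 and 5.04 CPM in the others (2.67 ± 0.29). Klra genes are near-identical copies, so reads can be split among them and single values are uncertain. Klrd1, which encodes CD94, rose by 1.57 ± 0.09, its partner gene Klrc1 (NKG2A) by 1.0 ± 0.10, and Klrk1, which encodes the activating receptor NKG2D, by 1.24 ± 0.10. Klrb1c, the NK1.1 antigen of C57BL mice, rose by 3.12 ± 0.45, at 5.51 to 32.5 CPM in members and 0.692 to 6.15 CPM in the others. Without cells holding Ncr1 or Klrb1c, 6 of 10 tested members of the list rose. Klrb1c belongs to this list and to the NK markers, so its loss from both was fixed by leaving out those cells. Of the NK markers, 3 of 10 were tested (Klrb1c, Tyrobp and Fcer1g), with a median of 1.83. Without those cells the median of the markers left was -0.40, so the medians cover different genes. The part of the NK markers in the list's change was not tested.

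Cytotoxic granule genes rose in 8 of 12 cases and fell in 1 (median 0.70). Gzma (ENSMUSG00000023132, chr13:113093825-113100981) encodes granzyme A and was found at 4187, 1620.0, 4924 and 8630.5 CPM in members and 641, 333, 641 and 2169 CPM in the others (2.40 ± 0.09, adjusted p = 2.43e-43). Levels differed among libraries as well, and members of KO 2 were below the others of control 2. Nkg7, a granule membrane protein, measured 3291, 5208, 3456 and 3779 CPM in members against 1462, 2327, 1709.7 and 1890.4 CPM (1.01 ± 0.08). The granzyme genes Gzmk (0.76 ± 0.11) and Gzmb (0.55 ± 0.10) rose less. Lamp1, of lysosomal membranes, was the member that fell. Perforin (Prf1) measured 0 to 6.10 CPM in members and did not pass.

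Transcription factors of effector cells rose in 6 of 12 cases and fell in 3 (median 0.54). Beside Zeb2, Tbx21 measured 113, 201, 148 and 132 CPM in members against 73.1, 66.0, 67.4 and 57.0 CPM in the others (1.07 ± 0.13, adjusted p = 5.36e-13). Ikzf3, which encodes the lymphoid regulator Aiolos, rose by 1.78 ± 0.16, and Rora, Bhlhe40 and Prdm1 also rose. Maf fell by 1.02 ± 0.16, and Ikzf2 (Helios) and Batf fell with it. Eomes, the T-box relative of Tbx21, measured 17.9, 66.4, 24.4 and 0 CPM in members against 12.2, 31.0, 18.9 and 14.2 CPM (adjusted p = 0.203).

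Memory and naive genes fell in 9 of 13 cases and rose in none (median -1.35). Ccr7 (ENSMUSG00000037944, chr11:99144196-99155077), which brings T cells into lymph nodes, measured 12.4, 0, 6.10 and 0 CPM in members, against 92.9, 38.2, 83.7 and 68.0 CPM in the others (-3.59 ± 0.29, and -4.57 without KO 1). Bcl2, a survival gene, measured 84.0, 29.7, 34.6 and 97.4 CPM against 199, 138, 253 and 316 CPM (-1.95 ± 0.14), and the chromatin organiser Satb1 gave -2.02 ± 0.16. Il7r measured 129.5, 68.6, 97.6 and 244 CPM in members and 240.1, 172, 246 and 463 CPM in the others (-1.18 ± 0.12). Slamf6, a surface marker of TCF1-positive cells, gave -2.16 ± 0.16. Igfbp4 rested on 3 UMIs in members, a pooled ratio of 0.0615 (exact 95% interval 0.0127 to 0.180, counting error only). Tcf7 measured 73.0, 109.8, 16.3 and 48.7 CPM against 123, 152, 118 and 145 CPM (-1.14 ± 0.17, adjusted p = 1.97e-07), and no longer passed without control 2 (-1.05, adjusted p = 0.512) or by DESeq2 (-1.38, adjusted p = 0.126).

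**Figure D2:**
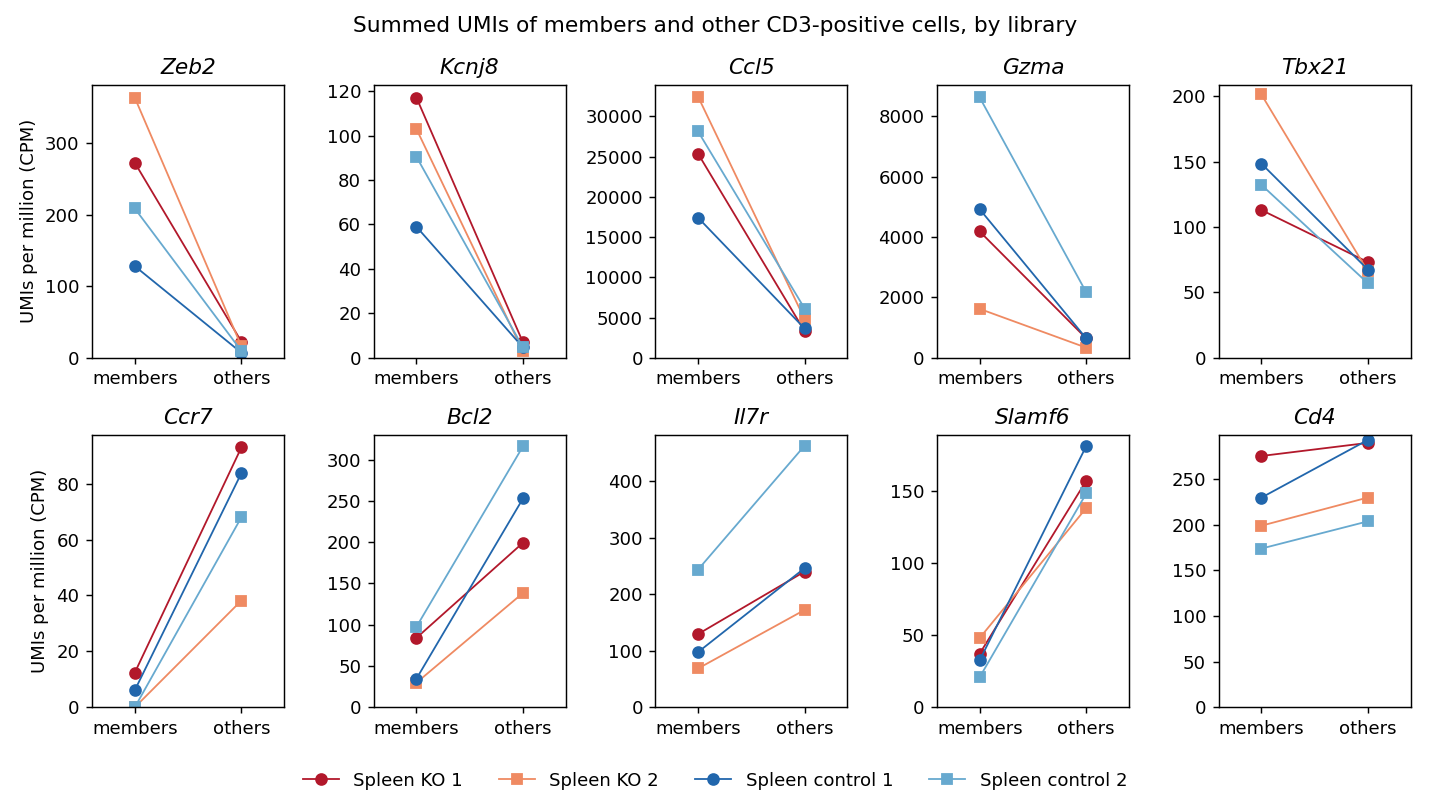
CPM of 10 genes in members (left of each panel) and other CD3-positive cells (right) of the 4 spleen libraries, from summed UMIs, with a line joining the 2 sums of a library. Axes start at 0 and differ between panels. Zeb2, Kcnj8, Ccl5, Gzma and Tbx21 lie higher in members of every library, and Ccr7, Bcl2, Il7r and Slamf6 lower, while Cd4 lies slightly lower without passing.

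Egress genes gave a mixed picture. Klf2, which drives S1pr1 in T cells, measured 2388, 2357, 1794 and 2172 CPM in members against 1455, 1100.3, 1398 and 1711 CPM in the others (0.56 ± 0.08), and Klf3 rose by 0.89 ± 0.14. Gpr183, an oxysterol receptor that positions cells in lymphoid tissue, fell by 1.77 ± 0.20. S1pr1 (-0.16 ± 0.13, adjusted p = 0.648) and S1pr4 (0.14 ± 0.09, adjusted p = 0.532) did not pass, with S1pr1 at 110.2, 87.0, 112 and 139 CPM in members and 127, 102, 107 and 124 CPM in the others.

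Integrin and adhesion genes rose in 5 of 11 cases and fell in 2 (median 0.30). Itga4 (the alpha chain of VLA-4) measured 239.7, 313, 229.8 and 258 CPM in members against 93.6, 129, 102 and 169.8 CPM (1.08 ± 0.11). Itgb2 (0.75 ± 0.08) and Itgal (0.54 ± 0.12), which encode the chains of LFA-1, rose beside it. Chemokine receptors fell in 5 of 9 cases and rose in 1 (median -1.05). Cxcr3, a receptor of Th1 cells, measured 146, 146, 224 and 174 CPM against 285, 306, 426 and 335 CPM (-1.05 ± 0.11). Ccr4 had 1 UMI in members, in KO 1, a pooled ratio of 0.0406 (0.00103 to 0.228), and Cxcr5 had 4.

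Th1 genes rose in 5 of 13 cases and fell in 1, Cxcr3 (median 0.50). Ifng measured 92.3, 130.4, 91.5 and 55.7 CPM in members and 41.3, 75.6, 62.3 and 35.2 CPM in the others (0.75 ± 0.15, adjusted p = 5.67e-05). Il18rap, a chain of the interleukin-18 receptor, rose by 1.55 ± 0.14. Among cytokine receptors 3 of 19 rose and 4 fell, with Il10ra at 1.25 ± 0.24, while Il2rb did not pass (-0.16 ± 0.11). Th17 and IL-23 pathway genes fell in 2 of 7 cases. Ccr6 (adjusted p = 0.0102) no longer passed without KO 1 (-3.21) or control 1 (-1.61), and Ahr no longer passed without KO 1.

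Regulatory T cell markers fell in 4 of 5 cases (median -0.66), among them Tnfrsf18 (-0.66 ± 0.13), which encodes GITR. Co-inhibitory and exhaustion genes fell in 5 of 10 cases and rose in none (median -0.83). Tox2 had 3 UMIs in members, all in KO 1, a pooled ratio of 0.0844 (0.0174 to 0.248), and Cd200 gave -2.28 ± 0.50. Pdcd1, which encodes PD-1, gave -0.83 ± 0.23 and no longer passed without KO 2 (-0.68) or control 1 (-0.64). Interferon-stimulated genes fell in 4 of 15 cases (median -0.44), with Ifi27l2a at 747, 682, 323 and 167 CPM in members against 1434, 1108, 837 and 293 CPM (-1.04 ± 0.09). T cell receptor activation genes fell in 2 of 10 cases, Cd69 (-0.85 ± 0.18) and Myc, which no longer passed without KO 1 (-1.15, adjusted p = 0.101). T cell markers fell in 2 of 9, Cd28 (-0.70 ± 0.10) and Cd5 (-0.54 ± 0.11).

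Other genes changed by large amounts. Higher genes were Klrb1f (2.16 ± 0.24), Ifitm10 (2.16 ± 0.29), Samd3 (1.97 ± 0.29, and 1.30 without KO 2) and the lipid transfer gene Stard10 (1.85 ± 0.40). Lower genes were Fam101b (2 UMIs in members, a pooled ratio of 0.0358, 0.00433 to 0.130), Nsg2 (-3.07 ± 0.37), Tnfsf11 (-3.00 ± 0.48), which encodes RANKL, the Rab regulator gene Tbc1d4 (-2.36 ± 0.38), the cytokine signalling inhibitor Socs3 (-2.34 ± 0.33), Tnfrsf4 (-2.20 ± 0.21), which encodes OX40, and the interferon-induced GTPase gene Iigp1 (-2.11 ± 0.32). Nsg2 gave -4.30 without KO 1 and -2.44 without control 1, Tnfsf11 gave -4.35 without KO 1, and Tbc1d4 gave -2.97 without KO 2. Rgs10, a brake on G protein signalling, measured 31.7, 0, 14.2 and 41.8 CPM against 122, 113, 119.8 and 166 CPM (-2.72 ± 0.20), gave -3.40 without KO 1, and no longer passed without control 2 (adjusted p = 0.133). Gcg measured 1.38, 13.7, 2.03 and 0 CPM in members and 28.6, 61.7, 20.5 and 0.303 CPM in the others (-2.91 ± 0.39, and -3.96 without KO 2). Lyz2, a lysozyme of myeloid cells, fell by 5.42 ± 0.46, with 161 and 25.6 CPM in the others of KO 1 and KO 2 and under 1 CPM in the others of both controls, gave -3.42 without KO 1, and did not pass with DESeq2 (adjusted p = 0.855). It was the 1 called gene among 6 tested macrophage markers, and Iigp1 is among the interferon-stimulated genes counted above.

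**Figure D3:**
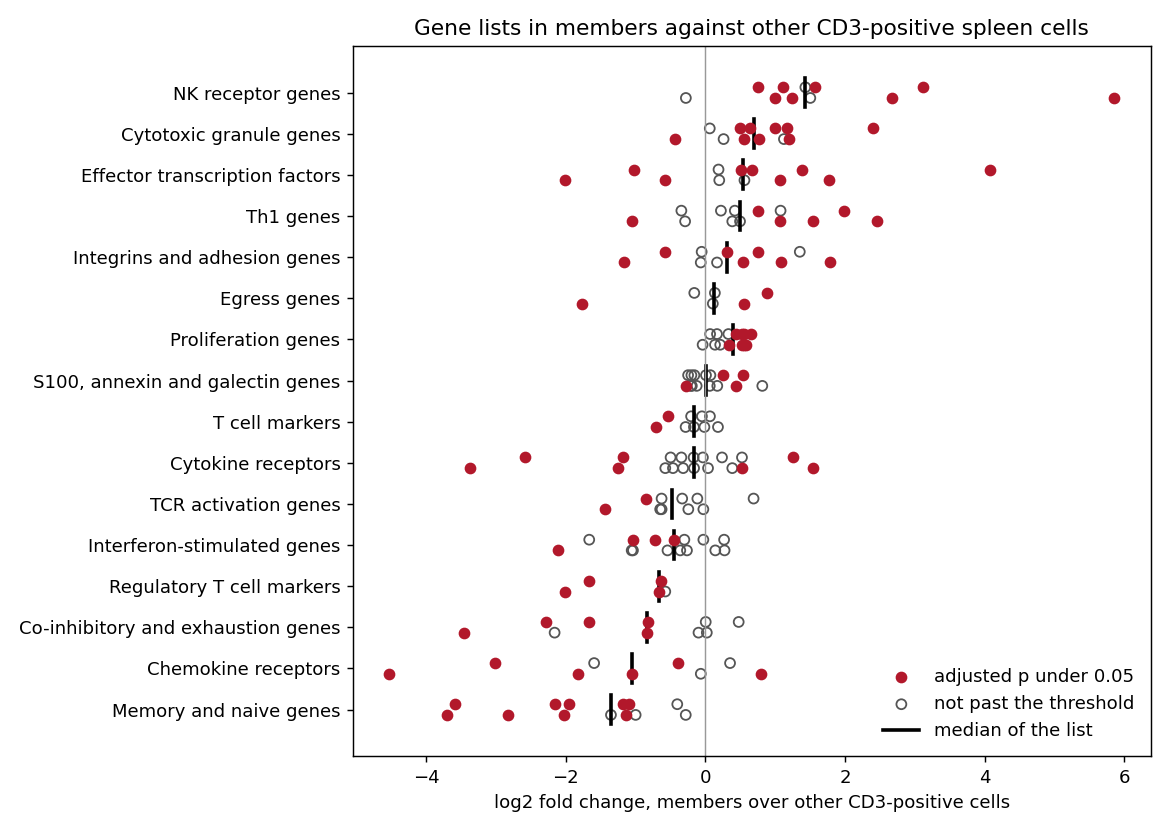
Log2 fold change of members over other CD3-positive spleen cells for every tested gene of 16 lists (rows). Red points passed at an adjusted p of 0.05, open points did not, and black bars are list medians. NK receptor genes have a median of 1.43 at the top and memory and naive genes -1.35 at the bottom.

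Levels also followed the number of marker genes found in a cell. Zeb2 was itself on the list of terminal effector markers, so its steps are given as a description. From 0 to 1 to 2 to 3 or 4 genes, Zeb2 measured 12.1, 50.1, 183 and 456 CPM in KO 1, and 12.6, 34.6, 271 and 567 CPM in KO 2. The same steps gave 4.73, 15.8, 52.8 and 271 CPM in control 1, and 6.4, 43.4, 179 and 268 CPM in control 2. Ccl5 was higher at each step in KO 1, KO 2 and control 1, and in control 2 it measured 29737 CPM at 2 genes and 24999 CPM at 3 or 4. Il7r was lower at every step in KO 1, control 1 and control 2, and in KO 2 it measured 65.3 CPM at 1 gene and 83.5 CPM at 2. Tcf7 did not follow one direction. It measured 148, 57.6, 53.4 and 113 CPM over the steps in KO 1, 172, 51.8, 100.2 and 131 CPM in KO 2, 135, 54.7, 15.5 and 17.7 CPM in control 1, and 153, 63.4, 31.5 and 82.6 CPM in control 2. Detection depends on depth, and cells with 3 or 4 genes had the lowest median depth in every library (1680.5 to 3991 UMIs).

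**Figure D4:**
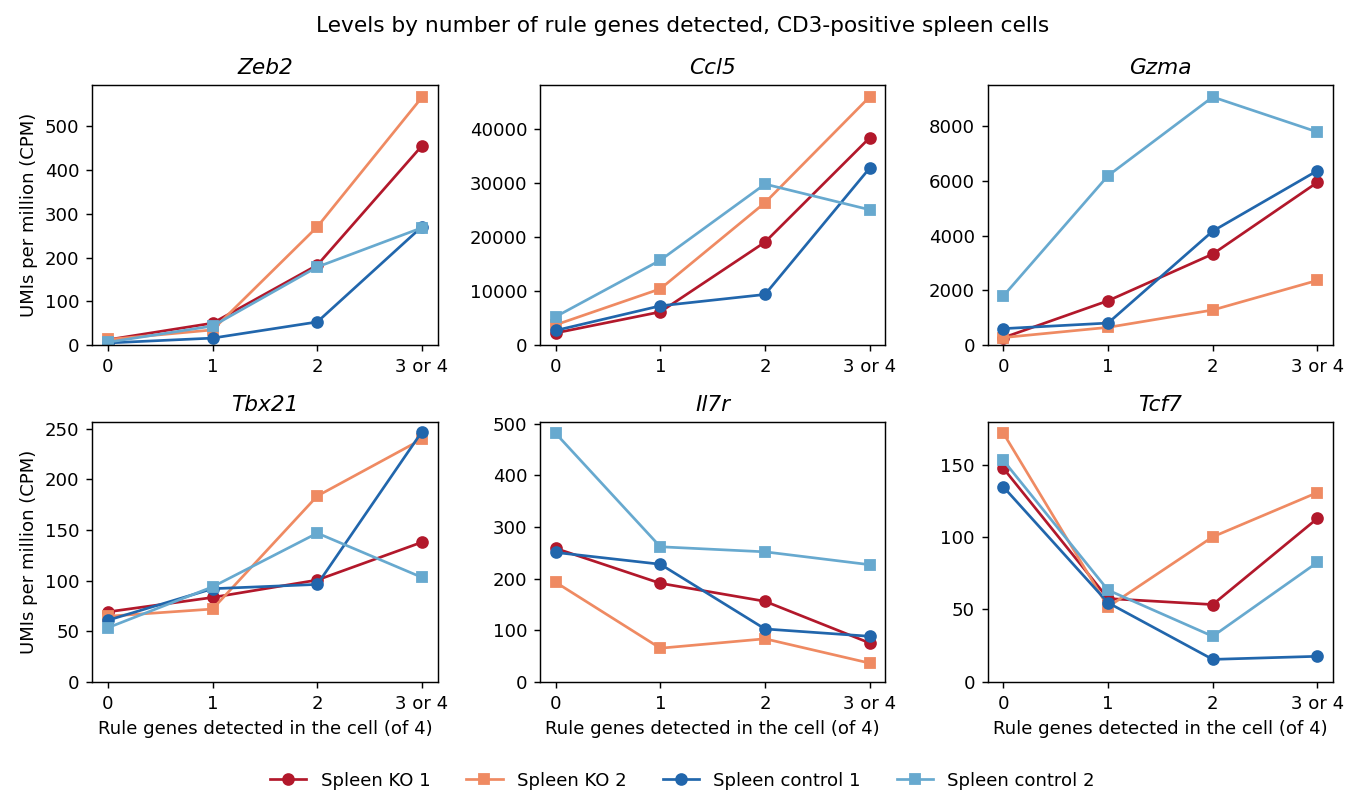
CPM of 6 genes in CD3-positive spleen cells grouped by how many of the 4 marker genes had a UMI, with 1 line per library. Cells with 2, 3 or 4 genes are the members, 16 to 102 cells a point. Zeb2 climbs at every step in all 4 libraries, Ccl5 in all but control 2, and Tcf7 turns upwards in some libraries.

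Proliferation genes differed among the libraries. In members against others they rose in 8 of 14 cases (median 0.39). Top2a, a topoisomerase of dividing cells, measured 86.8, 231, 279 and 251 CPM in members and 65.5, 252, 109 and 124 CPM in the others (0.55 ± 0.13, adjusted p = 0.00153). Cdk1, a kinase of mitotic entry, measured 56.5, 128, 151 and 146 CPM against 41.1, 129.8, 58.6 and 51.5 CPM (0.66 ± 0.15). In cells thinned to 1500 UMIs the median of the list was 0.04 and 1 gene rose. Top2a no longer passed without control 1 (0.20) or control 2 (0.52), nor did Cdk1 (0.33 and 0.57). Counted per cell at 1500 UMIs, at least 4 of the 14 genes were present in 7.74% of members and 13.8% of the others in KO 1, and in 18.4% and 23.6% in KO 2. In control 1 the shares were 27.0% of members and 13.5% of the others, and in control 2 they were 21.9% and 11.9%. Without thinning the shares were 31.0% and 46.3% in KO 1, 21.4% and 32.0% in KO 2, 48.6% and 39.0% in control 1, and 16.3% and 15.3% in control 2. No cycling is read from these shares alone.

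**Figure D5:**
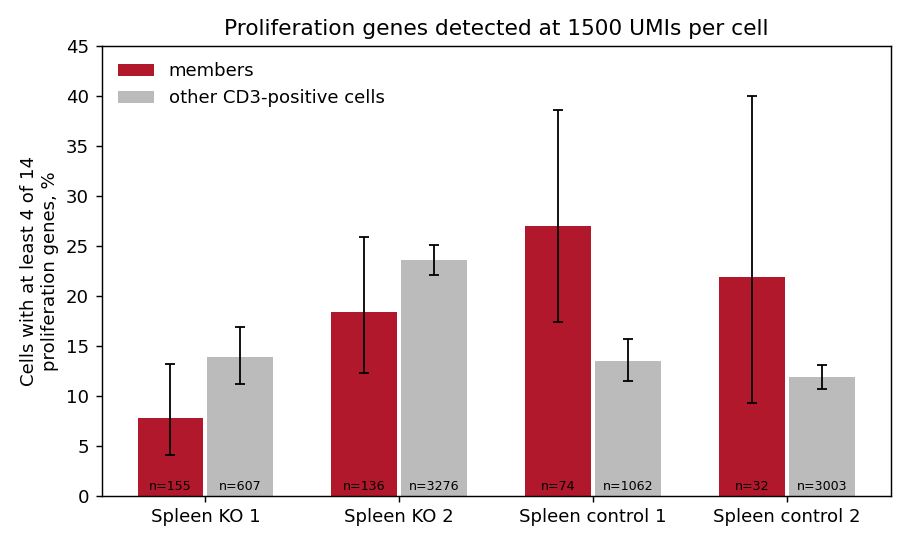
Percent of members (red) and other CD3-positive cells (grey) with at least 4 of 14 proliferation genes at 1500 UMIs per cell, with exact 95% binomial intervals and the number of cells in each bar. The member bar is the lower one in KO 1 (7.74%) and KO 2 (18.4%) and the higher one in control 1 (27.0%) and control 2 (21.9%).

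The comparison of KO with control within members asked whether the receptor mattered in these cells. No gene of 5061 passed by edgeR (0%), with 142 at an unadjusted p under 0.05, and none by DESeq2, with 29. With the replicate number as a block 29 genes passed (0.573%), 15 higher (0.296%) and 14 lower (0.277%) in KO. With cells thinned to 1500 UMIs and the block, 5 passed. Leaving out 1 library without a block gave 18 genes without KO 1, 45 without KO 2, 1 without control 1 and 12 without control 2.

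Among genes higher in KO members, Xcl1, Gtf2i, Ifi27l2a, Tob1 and Txk had the smallest p-values, and none of these passed without the block (adjusted p = 0.56 to 0.951). Xcl1, a chemokine for cross-presenting dendritic cells, had 24 and 21 UMIs in KO 1 and KO 2 and 0 in both controls, at least 8.20-fold higher in KO against a floor of 3 UMIs over the control group (adjusted p = 0.000364 with the block). Ifi27l2a measured 747 and 682 CPM in KO members and 323 and 167 CPM in control members (1.51 ± 0.32, and 1.55 with the block, adjusted p = 1.21e-06). In the other CD3-positive cells it measured 1434 and 1108 CPM in KO and 837 and 293 CPM in control. Its log2 effect in members minus that in the others was 0.49 ± 0.15 and did not pass (edgeR interaction, adjusted p = 0.0891). Gtf2i, a general transcription factor, measured 136 and 167 CPM against 32.5 and 76.6 CPM (1.71 ± 0.37, adjusted p = 0.00038 with the block). The growth regulator gene Tob1 measured 84.0 and 82.4 CPM against 28.5 and 34.8 CPM (1.46 ± 0.37). The kinase gene Txk measured 99.2 and 121 CPM against 46.8 and 34.8 CPM (1.34 ± 0.34). Tob1 and Txk passed with the block at 0.0417 and 0.0428.

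Among genes lower in KO members, Hist1h1b, Cdca5, Clspn, AA467197, Rad51ap1 and Dut had the smallest p-values, with adjusted p of 0.705 to 1 without the block. The linker histone gene Hist1h1b measured 6.89 and 16.0 CPM in KO members and 61.0 and 62.6 CPM in control members (-2.50 ± 0.50, and adjusted p = 0.0018 with the block). Clspn, a checkpoint mediator, gave -2.46 ± 0.58 and Cdca5, of sister chromatid cohesion, -2.15 ± 0.50, and these passed with the block at 0.0343 and 0.0160. Dut, of nucleotide synthesis, gave -0.94 ± 0.25 and passed with the block at 0.0260. Rad51ap1 (-2.15 ± 0.57) did not pass with the block either (adjusted p = 0.0822). AA467197, chosen after its values were seen, measured 159.8 and 109.8 CPM in KO members and 348 and 258 CPM in control members (-1.15 ± 0.29, and adjusted p = 0.00134 with the block). Plac8, also chosen after its values were seen, had the smallest p with the block, at 262 and 87.0 CPM in KO members and 588 and 585 CPM in control members (-1.78 with the block, adjusted p = 3.43e-09). Reads of histone genes can be split among near-identical copies.

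Genes that set members apart from the others were also compared between genotypes. Zeb2 averaged 318 ± 64.4 CPM in KO members and 168 ± 57.0 CPM in control members (SD, n = 2 each; 0.99 ± 0.27, adjusted p = 1, and 0.0156 with the block). Tcf7 averaged 91.4 ± 26.0 CPM and 32.5 ± 22.9 CPM (1.82 ± 0.46, adjusted p = 0.951, and 0.00943 with the block). Gzma averaged 2903 ± 1815 CPM and 6777 ± 2621 CPM (-1.16 ± 0.53, adjusted p = 1, and 0.0178 with the block). By library, Gzma measured 4187, 1620, 4924 and 8630.5 CPM in members, so most of the gap lay in batch 2. In the others it measured 641, 333, 641 and 2169 CPM. The log2 effect of KO on Gzma in members minus that in the others was 0.10 ± 0.55 (edgeR interaction, adjusted p = 0.994). Tbx21 (0.13 ± 0.30), Ifng (0.47 ± 0.33) and Ccl5 (0.37 ± 0.32) did not pass with or without the block. At 1500 UMIs per cell with the block, Ifi27l2a, Gzma, Plac8 and AA467197 passed, while Gtf2i (adjusted p = 0.655), Tob1 (0.999), Txk (0.166), Tcf7 (0.442), Zeb2 (0.654) and Dut (0.892) did not. Xcl1, Hist1h1b, Cdca5 and Clspn were too low to be tested there. Of the 14 proliferation genes, 0 passed without the block and 2 fell with it (Top2a and Mki67), with a median of -0.60 without it.

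The interaction asked whether the effect of KO in members differed from that in the other CD3-positive cells of the same libraries. By edgeR 120 of 9518 genes passed (1.26%), 34 with a higher effect in members (0.357%) and 86 with a lower one (0.904%). DESeq2 called 11, cells thinned to 1500 UMIs gave 16, and leaving out control 1 left 9. Leaving out KO 1 left 59, KO 2 31 and control 2 132.

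Proliferation genes passed in 11 of 14 cases, all with a lower effect in members (median -0.91, against 0.03 over all genes), and 2 passed in thinned cells and 0 without control 1 (median -0.50). Hmgb2, a chromatin protein of dividing cells, measured 1766, 2785, 3480 and 2172 CPM in members and 2079, 2720.2, 1787 and 1598 CPM in the others (-0.77 ± 0.11, adjusted p = 9.53e-10, and -0.43 without control 1, adjusted p = 0.420). Rrm2, of nucleotide synthesis, gave -1.13 ± 0.18, and -0.67 without control 1. NK receptor genes passed in 3 of 11 cases, all lower. The NK cell markers Tyrobp (-2.20 ± 0.47) and Fcer1g (-2.18 ± 0.40) also passed, with members of control 2 at 0 CPM of both. Without control 1 both turned direction and did not pass (7.96 and 6.71), and without KO 1 Tyrobp passed at -5.53 while Fcer1g, at -1.05, did not. Their part in the NK receptor values was not tested. Klrc1 measured 373, 304, 374 and 487 CPM in members and 220.5, 205, 144 and 136 CPM in the others (-0.80 ± 0.16, and adjusted p = 0.153 without KO 2). Of the S100, annexin and galectin genes 5 of 15 passed, all lower. Among them, Anxa2 and Lgals1 lost the call in most alternatives and Lgals3 and Vim in some. Their effects stayed lower, at -0.80 to -0.39 for Anxa2, -0.42 to -0.29 for Lgals1, -0.78 to -0.42 for Lgals3 and -0.88 to -0.32 for Vim. Of the Th1 genes 1 passed, Ccl5, with a higher effect in members (0.69 ± 0.09, adjusted p = 5.11e-11), and it did not pass in thinned cells (0.33) or without control 1 (0.76). Zeb2 did not differ beyond its error (-0.15 ± 0.27, adjusted p = 0.945).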

How the data were processed

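Single-cell libraries (Chromium 3' v2) of 12 tissue samples were processed with Cell Ranger 2.0.2 on mm10, per the submitters' processing notes. The authors deposited UMI counts of 18601 genes in 32763 cells, with a batch column that equals the replicate number; the authors' cell filters, doublet handling and multi-mapping rule are not given in the sources used here. Spleen libraries held 6260216 to 13615291 UMIs. The 2 per-sample columns of genotype and tissue in the cell table were not used, and no doublet caller was run; cells above the 95th percentile of UMIs were left out in an alternative.

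UMIs were summed per library and class and tested with edgeR 4.0.16 (R 4.3.3; filterByExpr, TMM, robust quasi-likelihood test, Benjamini-Hochberg at 0.05 over all genes), leaving out the 7 rule and CD3 genes. Every adjusted p in the text is from it unless DESeq2 (1.42.0) is named. Fold changes are log2 with SE. CPM is UMIs of a gene scaled to a fixed total of UMIs of the class and library. KO was compared with control without a block, and the replicate block was an alternative. Same-numbered libraries share a batch in the cell table, and their deviations correlated at 0.266 in members and 0.504 in the others. Thinning drew 1500 UMIs from each cell (seed 1) and left out shallower cells. Scripts were tested on simulated data. The labels do not say whether replicates were separate animals, so p-values do not measure a spread between animals. The edgeR fits share their estimates of spread across genes. Very small p-values therefore rest on that sharing and on counts, and not on the spread of 4 libraries alone.

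Named genes were the 12 largest changes each way with a mean of at least 20 CPM in one class and every library on the same side, a set of marker genes and called list members; for KO against control the smallest p-values, and for the interaction the largest differences. Some genes of the rule are not reported here. Other genes named within lists were chosen after their values were seen. The members and lists were chosen with earlier results of these data known. Promoters and positions came from RefSeq on GRCm38.p6 and a GRCm38 gene annotation.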

Additional observations from a re-analysis of the deposited data

Results flagged for a closer look

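The effect of KO in members differed from that in the other CD3-positive cells of the same libraries by the interaction test for 19 named genes, and each value below is the log2 effect in members minus that in the others. A higher effect in members was found for Gtf2i (1.94), Acat2 (1.84), Tcf7 (1.83), Unc5cl (1.82), Pou2f2 (1.72), Tob1 (1.45), Txk (1.39), Pdcd4 (0.98), Cd84 (0.90) and the nuclear RNA Malat1 (0.80). Malat1 measured 21335 and 20513 CPM in KO members against 13113 and 12208 CPM in control members. In the other cells it measured 12838 and 14094 CPM in KO against 14193 and 12815 CPM in control. A lower effect in members was found for Hist1h1b (-2.87), Clspn (-2.60), Cdca5 (-2.24), Hist1h2ap (-2.09), Rad51ap1 (-1.98), Klra3 (-1.95), Spc24 (-1.78), Lmna (-1.65) and Rbpj (-1.65). Without control 1, 18 of the 19 no longer passed (adjusted p up to 1), Cd84 passed (adjusted p = 0.0487), and all 19 kept their direction, with Hist1h2ap at -0.03. Of the 19, 6 no longer passed without KO 1, 11 without KO 2 and 5 without control 2, and Klra3, Pou2f2 and Rad51ap1 were lost whichever library was left out. Histone and Klra genes have near-identical copies, so their counts are uncertain.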

How the results depend on the processing

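Of 9518 genes, 688 passed between members and others by edgeR. The count was 320 by DESeq2, 405 at 1500 UMIs per cell, 435 in cells with Cd4 and no Cd8, 135 with no library block, and 278 and 164 in batch 1 and batch 2 alone. No filter on low counts, DESeq2 size factors, 3 or more of the 4 genes, leaving out cells with Ncr1 or Klrb1c, and leaving out the deepest cells moved it by less than 1.5 times, and leaving out 1 library gave 461 to 574. KO against control within members, at 0 genes, gave 8 with no filter, 2 with 3 or more of the 4 genes, 29 with the replicate block, 5 with the replicate block at 1500 UMIs (chosen after seeing the data), and 1 to 45 without 1 library. The interaction, at 120 genes, gave 11 by DESeq2, 16 at 1500 UMIs, 30 with 3 or more genes, 55 in cells with Cd4 and no Cd8, 12 without the deepest cells, and 9 to 132 without 1 library. The share difference of 8.55 points stayed positive, at 3.35 to 9.17 points in other settings and 0.737 to 16.4 points without 1 library, and the sign exchange within batch was chosen after seeing the data. Where a library was left out, a lone sample was assumed to vary like the others. Over the named genes, 125 of 1182 values between members and others and 183 of 407 interaction values lost the call. Between members and others, Cdk1 turned to -1.06 with 3 or more genes and -0.35 without the deepest cells. Top2a turned to -0.012 at 1500 UMIs, -0.91 with 3 or more genes and -0.082 without the deepest cells. Tyrobp turned to -0.20 without cells with Ncr1 or Klrb1c and -2.33 in batch 2. For KO against control, Ccl5 turned to -0.029 and Mki67 to 0.55 without the deepest cells. Tbx21 turned to -0.095 with 3 or more genes, -0.019 in cells with Cd4 and no Cd8 and -0.020 with the replicate block at 1500 UMIs, and ran between -0.26 and 0.43 without 1 library. In the interaction, Hist1h1b turned to 0.25 with 3 or more genes and Zeb2 ran between -0.62 and 0.25 without 1 library. Fcer1g turned to 2.31 and Tyrobp to 1.79 with 3 or more genes, and without 1 library they ran between -2.32 and 6.71 and between -5.53 and 7.96. The cause of these changes was not tested. The replicate block changed no other call among the named genes than those given with it. The same comparison in colon lamina propria could not be fitted, since it needed 10 gated cells in each library and 3 of the 4 held 4 to 6. Depth limits the members most in control 2, with 143677 UMIs in 49 cells.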
